A study of Raphanus sativus with 12 samples.

Results

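BTB/POZ and TAZ domain-containing proteins 2 and 1 of radish (Raphanus sativus) are encoded by Rsa10003709 and Rsa10019569, 2 of the 30161 genes in the deposited expression table. They were picked by gene identifier because their transcripts were among the greatest rises between young and old leaf blades, so their change with age is given here as a description, with no test. Leaf blades of the diploid material XHT were taken 30 days after sowing, in vegetative growth, and 120 days after sowing, in reproductive growth. All plants grew at 25 °C with 16 hours of light and at 23 °C in the dark night, and none was treated. Each library pooled the leaves of 3 plants, and each age had 3 independent biological replicates. The levels below come from the 6 input (plain RNA-seq) libraries, and the 6 libraries enriched for N6-methyladenosine (m6A, a methylated base in RNA) enter only through the authors' peak comparison.

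Proteins of this family join a BTB/POZ domain, which docks onto the cullin-3 scaffold of ubiquitin ligases, to a TAZ zinc finger and a calmodulin-binding tail. In Arabidopsis, from which the family is known, the member BT2 is induced by nitrate, repressed by sugar, follows the day and night cycle and takes part in the activation of telomerase. Arabidopsis BT1 and BT2 lower the use of nitrate through the high-affinity nitrate transporter genes, members of the family bind bromodomain proteins of the GTE group, and they act redundantly in the development of pollen and embryo sac. None of these roles was measured in the radish leaves.

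Levels are in FPKM, a count of fragments divided by transcript length and by the mapped total of the library, as the authors deposited them, which corrects for length and so allows genes to be set side by side. Protein 2 (Rsa10003709, minus strand of chromosome R01, positions 13270624 to 13272603 in the authors' coordinates) had 661.7, 719.69 and 742.21 FPKM in the 120-day replicates 1, 2 and 3. The same transcript had 1.44, 3.14 and 2.18 FPKM in the 30-day replicates. Every old leaf library was thus far above every young one, and the ages did not overlap. The means were 708 ± 41.5 FPKM at 120 days and 2.25 ± 0.852 FPKM at 30 days (SD, n = 3 each), a log2 fold of 7.80 (SE 0.21) on log2(FPKM + 1), the scale of all folds here unless named otherwise. By log2 fold it stood at rank 2 of the 21435 genes that passed a filter of at least 1 FPKM in at least 3 libraries.

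Protein 1 (Rsa10019569, minus strand of R01, positions 40828227 to 40830505) had 266.25, 351 and 314.06 FPKM at 120 days. At 30 days its values were 3.48, 3.9 and 5.15 FPKM. The ages did not overlap here either, which was so for 60.7% of all genes tested. The means were 310 ± 42.5 and 4.18 ± 0.869 FPKM (SD, n = 3 each), the log2 fold was 5.91 (SE 0.18), and the gene stood at rank 12. In the authors' deposited table, which compares the plain FPKM means, the fold was 314.31 for protein 2 and 74.33 for protein 1. The authors' deposited table called 18% of all genes significant in either direction and 6.45% significant and higher at 120 days, and both members were among them, as the way they were picked required.

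**Figure D1:**
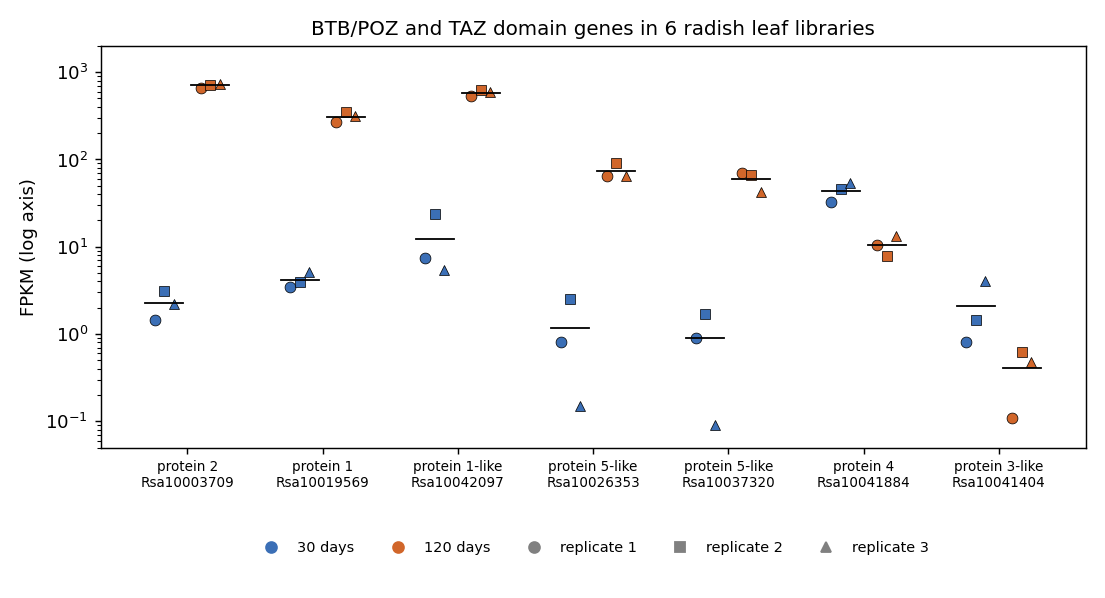
Level of the 7 BTB/POZ and TAZ domain genes in FPKM (log axis) in each of the 6 input libraries, blue for 30 days and orange for 120 days, with a marker shape for each replicate and a line at the mean of each age. Proteins 2 and 1, protein 1-like and both copies of protein 5-like were higher in all 3 libraries of 120 days, and proteins 4 and 3-like were higher in all 3 libraries of 30 days.

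The order of the 2 genes was opposite at the 2 ages. Protein 2 exceeded protein 1 in all 3 old leaf libraries, with ratios of 2.49, 2.05 and 2.36. In the young leaves protein 2 was the lower one, with ratios of 0.414, 0.805 and 0.423. Among all 30161 genes ranked by FPKM, protein 2 stood at rank 104, 103 and 103 in the old leaf libraries, and protein 1 at 314, 237 and 268. In the young leaves protein 2 lay between ranks 17212 and 20963 and protein 1 between 15116 and 17788. The replicates of the old leaves were close for protein 2, with a coefficient of variation of 5.87%, against 13.7% for protein 1. At the low levels of the young leaves these coefficients were 37.8% and 20.8%.

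Some facts of the whole data set bear on these values. The 30-day replicate 3 stood apart: over the genes tested its log2 values correlated at 0.835 to 0.895 with the other 30-day libraries. The 30-day replicates 1 and 2 correlated at 0.944, and the 120-day libraries at 0.971 to 0.985 with each other. The 30-day replicate 2 correlated at 0.835 with replicate 3 and at 0.84 to 0.853 with the 120-day libraries. For 30-day replicate 1 the correlation with the 120-day libraries was 0.833 to 0.842, and for replicate 3 it was 0.728 to 0.741. Without 30-day replicate 3 the log2 fold was 7.80 for protein 2 and 6.05 for protein 1. The ages also differed over most of the transcriptome: the median gene had a log2 fold of -0.45, and setting all library medians equal raised the members' log2 folds to 8.24 and 6.35. Leaf markers moved as well: the summed level of the 6 genes for the small chain of ribulose bisphosphate carboxylase was 47194 to 61654 FPKM at 120 days and 11511 to 12252 FPKM at 30 days. Of these 5 were tested and 4 rose (80%), where 8.4% of all genes tested did. The 24 chlorophyll a-b binding protein genes summed to 23910 to 34098 FPKM at 120 days and to 803 to 4534 FPKM at 30 days. Of 23 tested 12 rose (52.2%) and 1 fell (4.35%), where 8.4% and 37.6% of all genes tested did. Without 30-day replicate 3, 21 of the 23 rose, where 2197 of all 21435 genes did. With quantile normalization 8 rose, where 2654 of all genes did. The 11 floral organ genes summed to at most 4.65 FPKM and the 4 root genes to at most 0.34 FPKM in any library, too low for any of them to be tested. In such bulk samples, fewer cells of a type and less RNA per cell cannot be told apart, and the part of leaf cell make-up in the members' values was not tested.

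BTB/POZ and TAZ genes made up a family of 7, and the other 5 were not picked for their change. Of these, 3 rose, 1 fell and 1 was too low to test. Protein 1-like (Rsa10042097, R05), the closest to protein 1 by its description, had 527.03, 632.46 and 591.42 FPKM at 120 days against 7.46, 24.03 and 5.44 FPKM at 30 days. Its log2 fold was 5.72 (SE 0.49), with an adjusted p = 0.0018 by limma over all genes tested, and 8.4% of all genes tested rose at 120 days by that test. At both ages protein 1-like lay above protein 1, and at 120 days its highest library stayed below the lowest library of protein 2.

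Both copies of protein 5-like rose from a lower level. Rsa10026353 on R02 had 64.34, 92.18 and 64.87 FPKM in the old leaves and 0.81, 2.55 and 0.15 FPKM in the young ones, a log2 fold of 5.24 (SE 0.41, limma adjusted p = 0.0015). Rsa10037320 on R04 had 69.3, 66.36 and 41.86 FPKM against 0.91, 1.68 and 0.09 FPKM, a log2 fold of 5.05 (SE 0.37, limma adjusted p = 0.0015). The 2 copies overlapped each other at both ages. How alike their sequences are was not measured, and the assignment of any shared reads was not given in the sources used here; the level of a single copy is uncertain.

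Protein 4 (Rsa10041884, R05) went the other way. It had 10.55, 7.85 and 13.28 FPKM at 120 days and 32.47, 45.56 and 53.07 FPKM at 30 days, a log2 fold of -1.95 (SE 0.25, limma adjusted p = 0.0037). By the same test 37.6% of all genes fell at 120 days. Protein 3-like (Rsa10041404, R08) was too low for the filter and has no test; it had 0.11, 0.62 and 0.48 FPKM at 120 days and 0.8, 1.43 and 4.03 FPKM at 30 days. The 4 calls among these family members held under every alternative run, including each library left out in turn.

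Summed over the 7 genes, the family's transcript level was 1599.28, 1870.16 and 1768.18 FPKM in the old leaves and 47.37, 82.29 and 70.11 FPKM in the young leaves. The make-up of that sum differed with it. Protein 4 held 55.4% to 75.7% of the sum at 30 days and 0.42% to 0.751% at 120 days. Protein 2 held 3.04% to 3.82% at 30 days and 38.5% to 42% at 120 days, and protein 1 held 4.74% to 7.35% and then 16.6% to 18.8%. In all 3 old leaf libraries the order was protein 2, protein 1-like, protein 1, and in all 3 young ones protein 4, protein 1-like, protein 1. Since 2 of the 7 genes were picked for their rise, these shares describe the family and support no test.

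**Figure D2:**
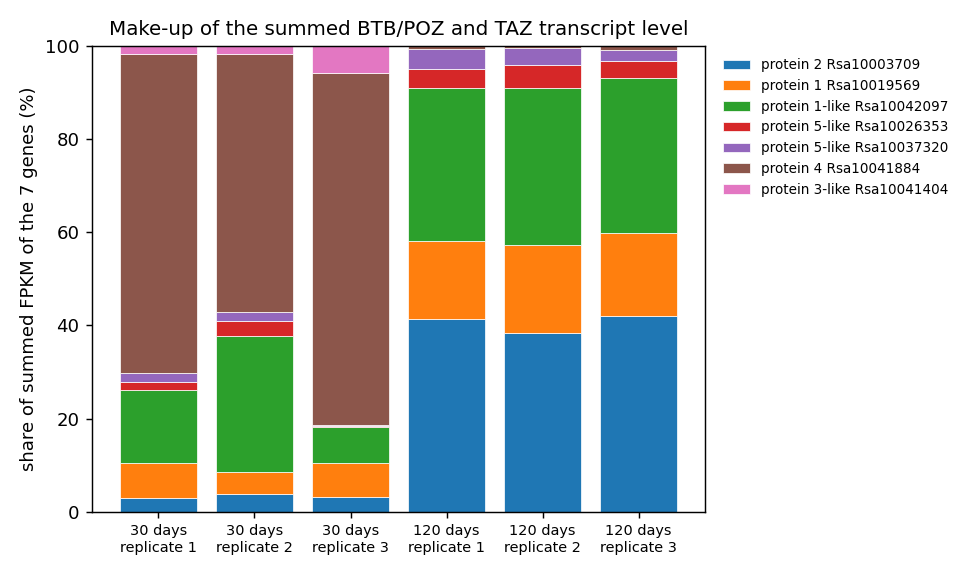
Share of each gene in the summed FPKM of the 7 BTB/POZ and TAZ genes (%), 1 bar for each input library. Protein 4 fills 55.4% to 75.7% of the young leaf bars, and protein 2, protein 1-like and protein 1 fill most of the old leaf bars.

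Within the young leaves, the low levels did not scatter alike. Of the 5 family genes that were higher at 120 days, proteins 2 and 1 included, 4 had their highest 30-day value in replicate 2, protein 1 being the exception. Among all genes tested with a single highest 30-day library, 27.2% had it in replicate 2. Protein 1-like varied 4.42-fold between the 30-day libraries and the 5-like copies 17-fold and 18.7-fold, while protein 2 varied 2.18-fold and protein 1 1.48-fold.

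The wider BTB/POZ class, adaptors of cullin-3 ligases and phototropic signalling proteins among them, did not share the rise. Besides the 2 members, 67 genes carried BTB/POZ in their description, 54 were tested, 4 rose (7.41%, beside 8.4% of all genes tested), 19 fell (35.2%, beside 37.6%) and 31 did not pass. Their median log2 fold was -0.37, beside -0.45 for all genes tested. Of the 50 tested that carry no TAZ domain, 1 rose and 18 fell, with a median of -0.40. Of the 19 falls, 4 passed under every alternative run (At1g55760, protein 4, the At1g01640-like gene Rsa10025683 and At3g44820) and 15 were lost under at least 1. With library medians set equal, 4 of the 54 fell (10.2% of all genes tested did) and 4 rose (13.8%), and without 120-day replicate 1, 2 or 3 or 30-day replicate 1 the number was 9, 8, 6 and 9. The count of rises was 3 to 5 with a library left out.

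The single rise outside the TAZ group was At1g50280 (Rsa10003278), named for its Arabidopsis counterpart, at 16.6 ± 2.33 FPKM in the old leaves and 5.32 ± 2.51 FPKM in the young (SD, n = 3), a log2 fold of 1.56 (limma adjusted p = 0.0132). Its adjusted p was 0.0527 without 120-day replicate 2 and 0.0545 without replicate 3, by limma. The greatest fall was At1g55760 (Rsa10012215), with 4.81, 6.07 and 6.74 FPKM at 120 days and 50.03, 81.95 and 56.54 FPKM at 30 days, a log2 fold of -3.19 (SE 0.22, limma adjusted p = 0.0014). That fall held under every alternative run. The ages overlapped in neither of these genes, and they did not overlap in 60.7% of all genes tested.

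Smaller falls were those of the At1g01640-like gene Rsa10025683 (log2 fold -1.60, SE 0.28), At3g44820 Rsa10003734 (-1.30, SE 0.13) and At3g49900-like Rsa10032868 (-1.11, SE 0.24). The first and the last were low genes, at 2.42 ± 1.29 and 3.51 ± 0.961 FPKM even at 30 days (SD, n = 3). The fall of Rsa10032868 did not pass without 120-day replicate 3, with library medians set equal or with quantile normalization. At1g21780 (Rsa10040237) fell from 161 ± 100.2 to 59.6 ± 0.546 FPKM with a log2 fold of -1.25 (limma adjusted p = 0.0450), and that call was lost in 7 alternatives: without any of the 120-day libraries, without 30-day replicate 1, without the filter and with either other scaling. In the young leaves its replicate 2 held 275.23 FPKM, against 119.79 and 88.06 FPKM in the others. The most abundant BTB/POZ gene after protein 1-like and At1g21780, At5g67385-like (Rsa10016088), was at 73.4 ± 7.97 and 79.7 ± 10.9 FPKM and did not pass.

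**Figure D3:**
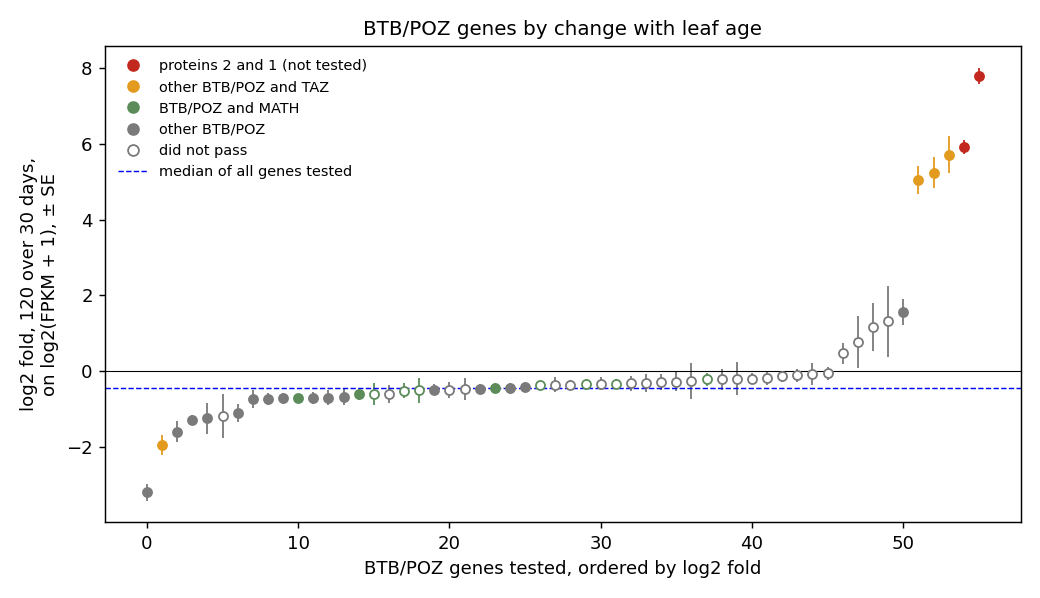
Log2 fold of 120 over 30 days on log2(FPKM + 1) for the BTB/POZ genes tested, ordered by fold, with bars of 1 SE; filled points passed the limma test, open points did not, and proteins 2 and 1 (red) are shown without a test. The 5 points above 5 are the 2 members and the 3 other TAZ genes that rose, and the highest of the rest is At1g50280 at 1.56.

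The TAZ zinc finger also occurs in the HAC histone acetyltransferases, which have no BTB/POZ domain. Of 12 HAC genes 10 were tested, none rose (8.4% of all genes did) and 6 fell (37.6% of all genes did), with a median log2 fold of -0.55 and with no fall left once library medians were set equal. The largest of them was HAC12-like Rsa10040950, at -1.13 (limma adjusted p = 0.0277). Together with the 4 tested BTB/POZ and TAZ genes, 3 of 14 TAZ genes rose and 7 fell, and without 120-day replicate 1, 2 or 3 or 30-day replicate 1 the falls numbered 3 each.

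Genes of the cullin ligases and their activation, those of cullin-1 and cullin-4 types included, showed no rise. Of 52 genes for cullins, RING-box proteins, the ubiquitin-like NEDD8 pathway that activates cullins, the COP9 signalosome that removes NEDD8 again, and SKP1-like adaptors, 47 were tested, none rose (8.4% of all genes tested did) and 31 fell (66%, beside 37.6% of all genes). Their median log2 fold was -0.67, and with library medians set equal 2 rose and 4 fell, where 13.8% of all genes rose and 10.2% fell. Without 120-day replicate 2 or 3 the falls numbered 13 each. Cullin-3A (Rsa10040015), the scaffold itself, had 14.43, 14.74 and 15.46 FPKM at 120 days and 25.31, 22.11 and 31.55 FPKM at 30 days. Its log2 fold of -0.77 passed (limma adjusted p = 0.0122) and with equal medians did not (limma adjusted p = 0.179). The second copy, cullin-3A-like Rsa10040600, had a log2 fold of -0.27 (limma adjusted p = 0.131). RING-box protein 1a (Rsa10021052), which holds the ubiquitin-conjugating enzyme, fell from 20.8 ± 0.958 to 10.6 ± 0.265 FPKM, and AXR1-like (Rsa10020011), a subunit of the NEDD8-activating enzyme, from 13.9 ± 0.734 to 6.10 ± 0.813 FPKM (SD, n = 3). COP9 signalosome subunit 3-like (Rsa10025188) and SKP1-like protein 18 (Rsa10012290) fell with log2 folds of -0.86 and -0.87, and neither passed with equal medians. Levels within the list differed widely at 120 days. RING-box protein 1a and AXR1-like had 10.6 and 6.10 FPKM, and the SKP1-like protein 1A genes Rsa10030684 and Rsa10023574 had 171 and 202 FPKM. Protein 2 had 708 FPKM in the same libraries.

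Genes of the types reported to bind or depend on Arabidopsis BT proteins were matched by name: GTE and other bromodomain proteins, calmodulin, cullin-3A and the telomerase reverse transcriptase. Which single copies are partners was not measured, and the list is called partners here for short. It matched 32 genes, of which 27 were tested. None rose (8.4% of all genes tested did) and 13 fell (48.1%, beside 37.6%), with a median log2 fold of -0.58, and with equal medians 1 rose and 3 fell, where 13.8% and 10.2% of all genes did. Without 120-day replicate 2 or 3 the falls numbered 7 and 8. GTE2-like (Rsa10036295) fell from 50.0 ± 2.75 to 20.9 ± 2.03 FPKM, GTE7 (Rsa10041917) from 28.4 ± 3.54 to 10.7 ± 0.881 FPKM and GTE8-like (Rsa10007523) from 27.4 ± 6.92 to 9.87 ± 0.928 FPKM (SD, n = 3), and these 3 falls held under every alternative run. Their products read acetylated histones. GTE12-like (Rsa10016255) fell with a log2 fold of -0.79 and did not pass with equal medians (limma adjusted p = 0.113). Of 6 calmodulin genes tested none passed. Of 3 genes named for the telomerase reverse transcriptase, the catalytic subunit of telomerase, 1 was tested. This was the reverse transcriptase-like gene Rsa10012533, with a log2 fold of -0.47 (limma adjusted p = 0.146). The others, Rsa10015088 and Rsa10028132, were too low to test, with at most 0.23 FPKM in any library.

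Genes of nitrate uptake, assimilation and response moved in both directions. Of 140 genes matched, 104 were tested, 21 rose (20.2%, beside 8.4% of all genes), 42 fell (40.4%, beside 37.6%) and 41 did not pass, with a median log2 fold of -0.47. With library medians set equal 25 rose and 26 fell, where 13.8% and 10.2% of all genes did, and without 120-day replicate 3 the falls numbered 26. This list also matched 4 folylpolyglutamate synthases, of which 1 rose, because their name contains that of glutamate synthase.

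Within it, all 7 genes for LOB domain-containing proteins 37 to 39 rose. In Arabidopsis these are nitrate-induced repressors of nitrogen and anthocyanin genes. The LBD37-like gene Rsa10028818 had 227.4, 250.23 and 260.13 FPKM at 120 days and 3.35, 11.47 and 4.01 FPKM at 30 days, a log2 fold of 5.25 (SE 0.40, limma adjusted p = 0.0015). The LBD39 genes Rsa10026355 and Rsa10036465 had log2 folds of 5.11 and 5.03, from 0.730 ± 0.862 and 0.900 ± 0.987 FPKM to 54.7 ± 5.63 and 56.1 ± 4.65 FPKM (SD, n = 3). The other LBD37-like genes, Rsa10016090 and Rsa10022199, had 4.39 and 3.88, and the last of these did not pass without 120-day replicate 1, 2 or 3 or without 30-day replicate 1 (limma adjusted p from 0.0501 to 0.0611). The 2 LBD38-like genes stayed low, at 4.85 ± 2.37 FPKM for Rsa10032870, listed at 0 in all 30-day libraries, and 4.15 ± 2.01 FPKM for Rsa10017986 at 120 days. The median log2 fold of the 7 was 4.39, and the 7 calls also passed with equal medians. These genes were singled out after their values were seen.

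The young leaf values of the LBD genes were highest in replicate 2 in 6 of the 6 with a single highest library, as in 4 of the 7 BTB/POZ and TAZ genes. Proteins 1, 4 and 3-like were highest in replicate 3. The summed level of the 7 was 5.05 to 47.33 FPKM at 30 days and 494.7 to 585.87 FPKM at 120 days.

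**Figure D4:**
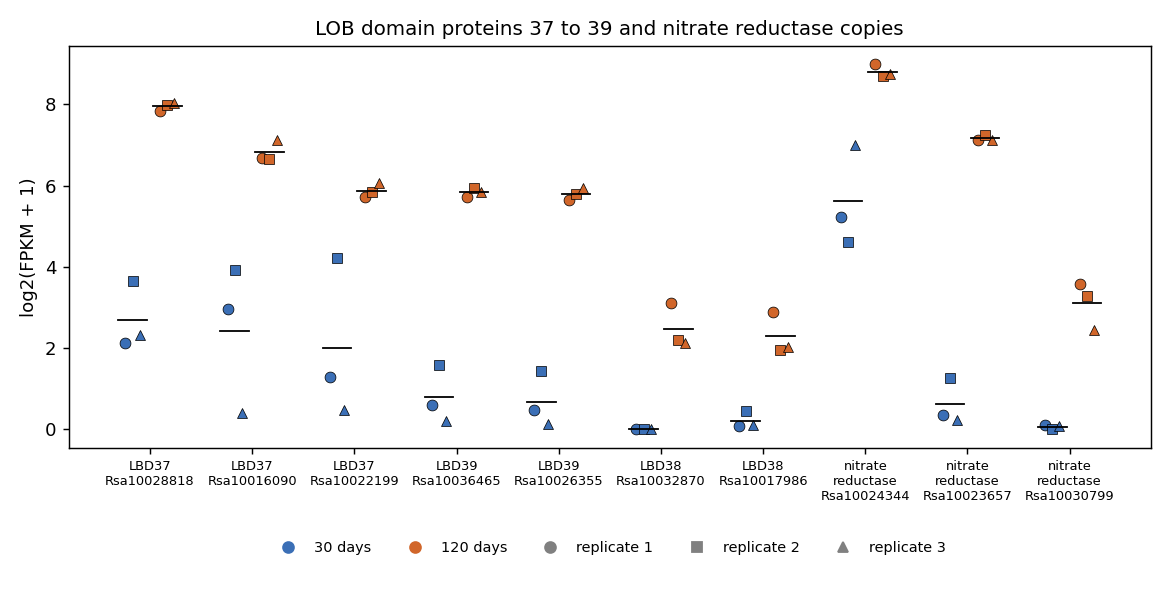
Level of the 7 LOB domain genes 37 to 39 (LBD) and the 3 nitrate reductase genes as log2(FPKM + 1) in each input library, blue for 30 days and orange for 120 days, with a marker shape for each replicate and a line at the mean. The ages do not overlap in any of the 10 genes, which was so for 60.7% of all genes tested. Replicate 2 is the highest 30-day point in the 6 LBD genes not at 0 and in nitrate reductase Rsa10023657. In nitrate reductase Rsa10024344 it is the lowest.

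Nitrate reductase, which reduces nitrate to nitrite, rose in all 3 copies tested, where 8.4% of all genes did. Rsa10023657 had 137.58, 151.59 and 138.7 FPKM in the old leaves and 0.27, 1.38 and 0.18 FPKM in the young, a log2 fold of 6.55 (SE 0.28, limma adjusted p = 3.0e-04). The copy with the most transcript, Rsa10024344, had 506.27, 411.65 and 425.77 FPKM against 36.38, 23.34 and 127.04 FPKM, a log2 fold of 3.19. The third, Rsa10030799, had a log2 fold of 3.04. Both chloroplastic glutamine synthetases rose, Rsa10008073 by 1.82 and Rsa10004756 by 1.11 on the log2 scale.

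Of 6 cytosolic glutamine synthetases tested, 5 fell (83.3%, beside 37.6% of all genes tested) and 1 rose (16.7%, beside 8.4%). The isozyme 1-4-like gene Rsa10018674 had 11.56, 1.84 and 2.63 FPKM at 120 days and 385.66, 130.93 and 805.8 FPKM at 30 days, a log2 fold of -6.09 (limma adjusted p = 0.0037). Of 15 NLP genes tested, whose products are nitrate-sensing transcription factors in Arabidopsis, none rose and 10 fell (66.7%). With equal medians 3 rose and 6 fell, where 13.8% and 10.2% of all genes did. Of 46 tested transporters of the NRT1/PTR family 3 rose (6.52%) and 19 fell (41.3%), near the shares of all genes. With equal medians 3 rose and 12 fell, where 13.8% and 10.2% of all genes did. Under that scaling rises were thus rarer and falls more frequent than over all genes. Of the high-affinity transporters of the NRT2 type, the type that BT1 and BT2 act on in Arabidopsis, 2 of 6 genes were high enough to test. The NRT2.5 gene Rsa10041054 was the one that fell, with 0.89, 0.71 and 0.58 FPKM at 120 days and 14.69, 11.78 and 4.73 FPKM at 30 days, a log2 fold of -2.60 (limma adjusted p = 0.0046).

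Genes of sugar and energy status, of interest because sugar represses BT2 in Arabidopsis, moved in both directions. Of 88 matched, 58 were tested, 8 rose (13.8%, beside 8.4% of all genes), 17 fell (29.3%, beside 37.6%) and 33 did not pass. The median log2 fold was -0.30, and with equal medians 12 rose and 5 fell, where 13.8% and 10.2% of all genes did. Without 120-day replicate 1, 2 or 3 or 30-day replicate 1 the rises numbered 2, 1, 2 and 3, and the falls 11, 8, 7 and 9. The transcription factor bZIP53 (Rsa10027788), which in Arabidopsis acts in low-energy signalling, rose from 39.9 ± 2.67 to 89.8 ± 13.2 FPKM (SD, n = 3), a log2 fold of 1.14. The beta-3 subunit of the energy sensor kinase SnRK1 (Rsa10028650) fell from 18.9 ± 3.73 to 5.96 ± 0.562 FPKM, and the sucrose carrier SUC4-like (Rsa10028572) from 6.64 ± 0.672 to 2.41 ± 0.295 FPKM. These 3 calls held under every alternative run. Trehalose-phosphate synthase 10 (Rsa10008985) fell with a log2 fold of -0.79 and did not pass with equal medians (limma adjusted p = 0.108). Relatives went the other way. Of 9 trehalose-phosphate synthases tested 2 rose (22.2%) and 3 fell (33.3%), and of 10 SnRK1 subunits 1 rose (10%) and 3 fell (30%). The rises were synthase 9 (Rsa10040633, log2 fold 3.01), synthase 11 (Rsa10025877, 2.27) and SnRK1 beta-1-like (Rsa10013206, 2.25). Each of these 3 calls was lost under at least 1 alternative run.

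**Figure D5:**
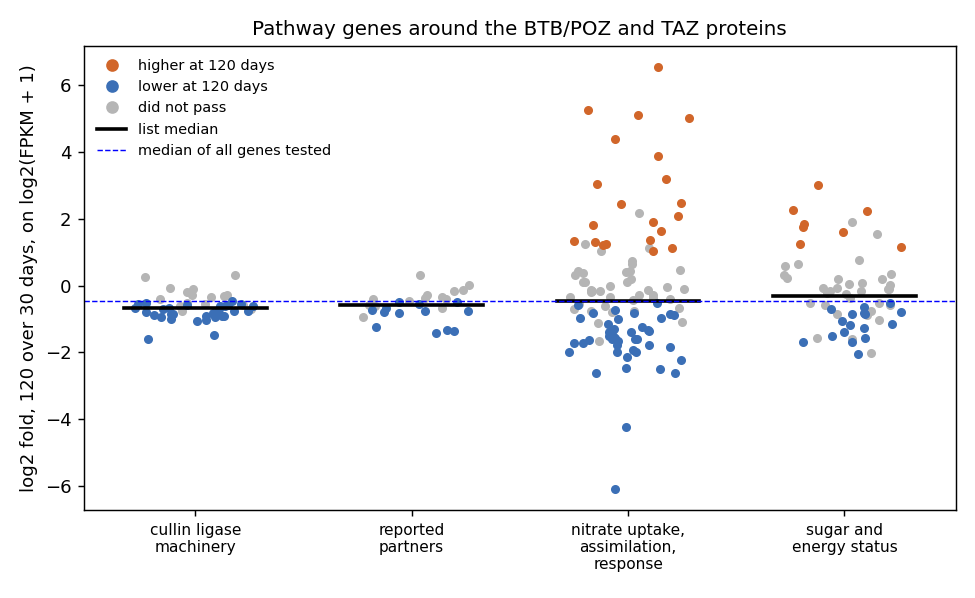
Log2 fold of 120 over 30 days on log2(FPKM + 1) for each gene tested in 4 lists, orange where it rose, blue where it fell and grey where it did not pass, with the median of each list as a black line and that of all genes tested (-0.45) as a dashed line. The ligase machinery and the genes matched by name as partner types hold no rise, and the nitrate list spreads from -6.09 to 6.55.

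Because BT2 follows the daily cycle in Arabidopsis and the hour of sampling was not given in the sources used here, clock genes were read beside the members, a choice made after the data were seen. The morning gene LHY (Rsa10012601) had 0.48, 0.29 and 0.35 FPKM at 120 days and 3.93, 0.41 and 23.71 FPKM at 30 days, so 30-day replicate 2 lay within the old leaf range and replicate 3 far above it. The GIGANTEA gene Rsa10001141 was at 14.26 and 15.4 FPKM in 30-day replicates 1 and 2 and at 1.35 FPKM in replicate 3, against 2.72 to 5.78 FPKM at 120 days. The 3 APRR1 (TOC1) copies differed in direction. Rsa10033632 ranged from 13.41 to 48.87 FPKM at 30 days and from 53.4 to 76.38 FPKM at 120 days and did not pass (limma adjusted p = 0.0598). Rsa10004088 fell from 5.29 ± 2.97 to 1.16 ± 0.367 FPKM (SD, n = 3, log2 fold -1.46, limma adjusted p = 0.0161), the 1 call among the 6 clock genes tested, which was lost without 120-day replicate 2 or 3 and with equal medians. Rsa10017933 had a log2 fold of -0.22 and did not pass. CCA1 (Rsa10009871) had 2.37, 4.34 and 3.53 FPKM at 120 days and 4.55, 3.69 and 6.32 FPKM at 30 days, and did not pass. In the 30-day libraries protein 2 ranged from 1.44 to 3.14 FPKM and protein 1 from 3.48 to 5.15 FPKM. The part of sampling time in the members' difference between the ages was not tested.

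Neither member had an entry in the deposited list of differential m6A peaks, nor had any of the 7 BTB/POZ and TAZ genes. The list holds only peaks that differ between the ages, with p-values up to 0.049 in the authors' deposited table, so a methylated site that does not differ would not appear in it. Among all genes tested, 23.3% had at least 1 listed peak. The share depended on the transcript level: it was 30.4% for genes with 10 to 100 FPKM at the higher age, 17.7% for those with 100 to 1000 FPKM, where both members lie, and 3.66% above that. At the lower age, 30 days, the members had only 1.44 to 5.15 FPKM. Whether a peak could be compared between the ages at such a level was not tested.

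Of the other BTB/POZ genes, 16 had 17 listed peaks, which is 29.6% of the 54 tested. Higher at 120 days in the authors' deposited table were 15 of these peaks, beside 96.8% of all 5476 peaks, and 10 lay in the 3′ untranslated region and 7 in other exon sequence. The highest log2 fold was 1.76 in the At1g01640-like gene Rsa10025683 (FDR 0.00776), whose transcript fell. The next was 0.965 in At3g05675-like Rsa10043062, whose transcript did not pass. Both peaks that were lower at 120 days in the authors' deposited table lay in NPY genes, relatives of the phototropism adaptor NPH3, at -0.99 in NPY3-like Rsa10022200 and -1.18 in NPY1-like Rsa10037029. FBL11 (Rsa10020449) carried 2 peaks, at 0.826 and 0.633. The 5 BTB/POZ and MATH genes with a peak, relatives that in Arabidopsis also serve as cullin-3 adaptors, were all higher in the authors' deposited table: 1-like Rsa10015234 had 0.677, 1-like Rsa10035901 had 0.481, 5-like Rsa10013191 had 0.512, protein 5 Rsa10035805 had 0.431 and protein 4 Rsa10014634 had 0.320. The remaining 6 genes, At3g09030, At1g30440, At5g41330, At4g08455, At1g01640 and POB1, ranged from 0.332 to 0.578.

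Genes whose pattern was most like that of the members were found by Pearson's r of log2(FPKM + 1) over the 6 libraries, which fall into 2 clusters by age, so a high r says little more than a clear difference between the ages with close replicates. Each member had r = 0.998 with the other, at rank 6 of 21434 genes. At least 0.95 was reached by 582 genes (2.72%) for protein 2 and 548 genes (2.56%) for protein 1. Genes among the 5 likest of both, leaving out uncharacterised ones, were a calcium uniporter protein 1 (Rsa10026410), which carries calcium into mitochondria, classical arabinogalactan protein 9-like (Rsa10025760), a cell wall glycoprotein, and Rsa10030159, described only by a rapeseed gene name. The first 2 were low, at 2.17 ± 0.0656 and 4.69 ± 0.422 FPKM at 120 days (SD, n = 3), and listed at 0 in all 30-day libraries. Nitrate reductase Rsa10023657 was among the 5 likest genes of protein 2, and the GDSL esterase/lipase Rsa10022605, at 279.9 ± 12.6 and 139 ± 8.12 FPKM, among those of protein 1.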

How the data were processed

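The authors deposited FPKM per gene for the 6 input libraries (3 per age), with fold changes, p-values and q-values of their own, per the file headers. Each m6A peak has the authors' deposited log2 fold (120 over 30 days) with its p-value and FDR, and no value per immunoprecipitated library was used. The deposited table that joins both was not used. The ratio of the age means in the expression table is the authors' deposited fold. The submitters' processing notes name fastp, FastQC, HISAT2, StringTie, HOMER and edgeR, without versions or roles. The genome build, strand handling and the treatment of reads shared by near-identical copies are not given in the sources used here. Low FPKM values showed no common step, so no read depth could be had and no counting interval is printed. FPKM summed to 636795 to 694436 per library. A value of exactly 0 may be a failed estimate.

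Genes with at least 1 FPKM in at least 3 of the 6 libraries entered a fit by limma 3.58.1 (R 4.3.3, eBayes with trend) on log2(FPKM + 1), 2-sided, with Benjamini-Hochberg adjustment over all 21435 genes and a threshold of 0.05. Tables were joined in Python 3.11.15 with pandas 2.3.3. This scale understates changes of low genes. The fit was tested on simulated data. Alternatives were a pseudocount of 0.1, no filter, a filter at 5 FPKM, equal library medians, quantile normalization, the replicate number as a block, and each library left out in turn, where an age keeps 2 libraries. Descriptions were matched by words for 6 gene lists, marker lists and protein types within the lists. Members and lists were chosen with earlier results of these data known. Named genes were the members, all BTB/POZ and TAZ genes, other BTB/POZ genes with the greatest called changes (up to 6 each way), the 3 most abundant ones or those with a peak, up to 4 called genes per list with the smallest p, the 5 likest genes of each member and the genes next to each on the chromosome. Other genes named were chosen after their values were seen.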

Additional observations from a re-analysis of the deposited data

How the results depend on the processing

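No alternative changed the direction of either member or a call among the other BTB/POZ and TAZ genes. The log2 fold of protein 2 was 8.30 with a pseudocount of 0.1 and 8.24 with equal library medians, and that of protein 1 was 6.35 with equal medians. Leaving out each library in turn gave 7.61 to 7.99 and 5.82 to 6.05.

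Counts of falls depended on scaling, since equal medians move the median of all genes from -0.45 to -0.01. Equal medians gave 2968 rises and 2188 falls over all genes, and quantile normalization 2799 falls. Under these 2 scalings falls numbered 4 and 4 among other BTB/POZ genes, 1 and 2 among TAZ genes, 4 and 7 in the ligase machinery (rises 2 and 2), 3 and 3 among partners (rises 1 and 1), 26 and 27 in the nitrate list and 5 and 6 in the sugar list. The filter at 5 FPKM, which tests fewer genes, left 2 falls among TAZ genes and 25 in the nitrate list.

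With a library left out, all genes gave 954 to 2197 rises and 3789 to 9166 falls. Without 120-day replicate 1, 2 or 3 rises numbered 1148, 954 and 1075 and falls 5032, 3900 and 3789, and without 30-day replicate 1 falls numbered 5299. Falls ranged from 6 to 24 among other BTB/POZ genes, 3 to 7 among TAZ genes, 13 to 34 in the ligase machinery, 7 to 19 among partners, 26 to 44 in the nitrate list and 7 to 20 in the sugar list, whose rises ranged from 1 to 10.

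Same-numbered libraries of the 2 ages had deviations correlated at 0.272, 0.142 and 0.0814, so the replicate numbers were not read as pairs. With the replicate number as a block, 11 other BTB/POZ genes and 4 TAZ genes fell, 4 and 3 rose, and all genes gave 1733 rises and 6875 falls.

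Under equal medians and quantile normalization the sign turned, without passing, for Rsa10016088 (0.32 and 0.12), Rsa10012644 (0.30 and 0.17), Rsa10029660 (0.24 and 0.15), Rsa10013191 (0.22 and 0.16), Rsa10022200 (0.16 and 0.075), Rsa10021417 (0.025 and 0.026), Rsa10043062 (0.13 and 0.0043) and Rsa10017933 (0.21 and 0.15), and under equal medians for Rsa10009871 (0.029). Of 56 named genes tested, 26 kept direction and call throughout. At an FDR of 0.01, 15 other BTB/POZ genes kept a peak. Read depth being unknown, values near 0 FPKM carry no stated error beyond the replicate spread. The causes of these shifts were not tested.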

Other observations

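Genes next to the members on chromosome R01 were read as well, 3 on each side. Beside protein 2, at 2273 bases, lay the cysteine endopeptidase gene CEP3 (Rsa10003710). It was too low to test, at 0.260 ± 0.080 FPKM in the old leaves and listed at 0 in the young. On the other side, at 14104 bases, lay a Ufm1-specific protease gene (Rsa10003708), with a log2 fold of -0.48 (limma adjusted p = 0.109). Of the 3 genes on each side of protein 2, 2 were too low to test and 1 fell. Another 1 rose, the haloacid dehalogenase-like gene Rsa10003706, with a log2 fold of 1.38. Beside protein 1, the next genes were the uncharacterised Rsa10019570 at 3994 bases, with a log2 fold of -0.19, and Rsa10016220 at 17468 bases, with -0.52 (limma adjusted p = 0.0192). Of the 3 genes on each side of protein 1, 1 was too low to test. None rose and 3 fell, where 8.4% and 37.6% of all genes tested did.

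Counting 3 genes on each side, 4 of 6 neighbours rose beside the protein 5-like gene Rsa10026353, 1 of 6 beside protein 1-like, and none beside the other 5-like copy Rsa10037320, protein 4 or protein 3-like. Falls numbered 3 beside protein 4, 1 each beside protein 1-like and protein 3-like, and 0 beside either 5-like copy. Too low to test were 1 neighbour each beside both 5-like copies and protein 1-like, 2 beside protein 3-like and 0 beside protein 4. Of all genes tested 8.4% rose and 37.6% fell. The protein 5-like gene Rsa10026353 and the LBD39 gene Rsa10026355 lay 32496 bases apart on R02, with 1 gene between them, the uncharacterised Rsa10026354, which rose from 12.5 ± 3.67 to 26.1 ± 1.31 FPKM (SD, n = 3, log2 fold 1.04). The purple acid phosphatase 29 gene Rsa10042098, 2634 bases from protein 1-like, rose from 26.0 ± 15.5 to 152 ± 64.7 FPKM (log2 fold 2.64, limma adjusted p = 0.0133). These neighbours were noticed in the data and no test of clustering was made.

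The deposited annotation gave 29 terms to protein 2 and 17 to protein 1, and all 17 were shared. The 12 terms of protein 2 alone include circadian rhythm, response to nitrate, sugar mediated signaling and response to cold. Of 423 genes tested with response to cold, 88 rose (20.8%, beside 8.4% of all genes tested) and 99 fell, with a median log2 fold of -0.16. Over all genes tested 37.6% fell. Of 126 with circadian rhythm 15 rose (11.9%) and 32 fell, of 21 with response to nitrate 3 rose and 10 fell, and of 41 with sugar mediated signaling 3 rose and 17 fell. Among shared terms, ubiquitin protein ligase binding had 7 rises and 52 falls of 101 genes, with a median log2 fold of -0.76.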
